A study of Mus musculus with 4 samples.

Results

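Cytosolic ribosomal protein genes were taken as the genes whose symbol starts with Rpl (large subunit) or Rps (small subunit), leaving out pseudogenes named -ps, the Rps6k kinases, antisense and read-through names, and genes with fewer than 10 counts summed over the libraries. The rule gave 87 of 49997 gene rows, 51 with large and 36 with small subunit names. Of 95 symbols that matched by name, 8 fell under the minimum. Just outside it were Rpl32l with 5 counts and Rpl3l with 4, and just inside were Rpl29 and Rps3a3 with 17 each and Rps27rt with 21. By name and RefSeq gene type, 77 of the 87 encode ribosomal proteins (46 large, 31 small), 6 are paralogs or retrotransposed copies (Rpl22l1, Rpl36al, Rpl37rt, Rpl7l1, Rps27l and Rps27rt) and 3 are pseudogenes (Rpl6l, Rps3a2 and Rps3a3). The last, Rps19bp1, encodes a protein that binds a ribosomal protein and is not part of the ribosome.

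Each ribosome joins a small subunit, which reads the messenger RNA, to a large subunit, which forms the peptide bond. Cells make the proteins of both in near equal numbers, and growing cells spend much of their transcription on them. Their messenger RNAs are short and abundant, and most begin with a terminal oligopyrimidine tract (TOP), a stretch through which the mTOR kinase controls their translation.

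RNA came from wild-type iMOP cells. These are mouse otic progenitors, cells that can give rise to neurons of the inner ear, kept as an immortalized line. The 2 libraries labelled proliferating came from cells in DMEM/F12 with N21 supplement, 20 ng/ml bFGF, a growth factor, and 25 µg/ml carbenicillin. The 2 libraries labelled neuron came from cells in Neurobasal medium with N21 supplement and 2 mM L-glutamine. Their medium also held 1 µM of K03861, which blocks CDK2, a kinase of the cell cycle. All share 1 line, and the labels do not say that libraries numbered 1 and 2 came from separate cultures, so p-values measure only the spread between these libraries.

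After 7 ribosomal RNA and similar genes, which took 88.2 to 98.1% of the counts, were set aside, 292302 (proliferating 1) to 3241915 (neuron 1) counts remained per library. Levels below are CPM, counts scaled for depth, over those remaining counts unless another scale is named. A count of 0 allows a level of 10.3 CPM in proliferating 1, 4.88 in proliferating 2, 0.925 in neuron 1 and 4.86 in neuron 2. The 8 cell division markers went against the labels, with a summed level of 229 and 623 CPM where the label was proliferating and 2302 and 3768 CPM where it was neuron, and no marker at 0. The 10 neuron markers summed to 2357 and 2187 CPM in the proliferating and 1481 and 1120 in the neuron libraries. Map2 held the most counts of this list in every library (327 and 789 in the proliferating, 1824 and 491 in the neuron libraries). Single markers did not all follow the sum. Rbfox3, with 4 counts in proliferating 1 and 176 in neuron 1, and Dcx, with 51 and 928, were higher for depth in neuron 1. With number 2 they had 2 and 143 counts in the proliferating and 3 and 102 in the neuron library. The 10 otic progenitor markers summed to 458, 444, 236 and 185 CPM in the order proliferating 1, proliferating 2, neuron 1 and neuron 2, with Pax8, Isl1 and Neurog1 at 0 throughout. The 7 glial markers summed to 783, 386, 250 and 303 CPM in that order, with Sox10 at 0 throughout, and the immune, mesenchyme and hair cell lists to 31.2 CPM at most. Among the otic progenitor markers, Sox2 held the most counts in every library (105 and 250 in the proliferating, 463 and 97 in the neuron libraries). Eya1, with 8 counts in proliferating 1 and 172 in neuron 1, was higher for depth in neuron 1. Fgfr2, with 6 counts in proliferating 2 and 8 in neuron 2, was slightly higher for depth in neuron 2. The part of cell makeup in the results was not tested, and in bulk RNA fewer cells of a type and less RNA per cell cannot be told apart.

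The members differ in base composition, along which their levels moved between libraries, as the results show. The first 90 coding bases are printed here for the members with the lowest and highest coding GC content of each subunit among those encoding ribosomal proteins, read 5′ to 3′ from GENCODE M21 transcripts of the mm10 build, with each G and C in capitals. Rpl39 (chromosome X, 37082518 to 37085222, minus strand) has a coding GC content of 44.2% and Rpl36 (chromosome 17, 56610094 to 56614246, plus strand) one of 61.3%. Rps15a (chromosome 7, 118104374 to 118116147, minus strand) has 45.5% and Rps15 (chromosome 10, 80292431 to 80294114, plus strand) 58.7%. In the stretches shown, 40 of 90 bases are G or C in Rpl39, 56 in Rpl36, 47 in Rps15a and 50 in Rps15.
Rpl39: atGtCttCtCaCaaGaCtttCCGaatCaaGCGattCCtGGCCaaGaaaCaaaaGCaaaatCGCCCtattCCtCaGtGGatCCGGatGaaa
Rpl36: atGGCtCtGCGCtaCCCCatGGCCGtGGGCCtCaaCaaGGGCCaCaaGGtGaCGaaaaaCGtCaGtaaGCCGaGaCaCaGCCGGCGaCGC
Rps15a: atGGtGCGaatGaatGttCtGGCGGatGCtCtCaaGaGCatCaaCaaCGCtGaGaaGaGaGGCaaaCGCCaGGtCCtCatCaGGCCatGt
Rps15: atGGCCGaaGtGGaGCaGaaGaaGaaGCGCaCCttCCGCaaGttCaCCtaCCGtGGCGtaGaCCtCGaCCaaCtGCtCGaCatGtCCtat

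The members together took 4.41% of the remaining counts in proliferating 1 (95% Wilson interval 4.34 to 4.49) and 3.27% in neuron 1 (3.26 to 3.29). Among those numbered 2 they took 2.65% in proliferating 2 (2.61 to 2.69) and 1.73% in neuron 2 (1.70 to 1.76). Within each number the share was therefore lower in the neuron library, while proliferating 2 lay below neuron 1, so the groups overlapped. Large subunit members took 2.58% and 1.59% in the proliferating and 1.97% and 0.987% in the neuron libraries, and small subunit members 1.84%, 1.06%, 1.30% and 0.741% in the same order. Out of all counts, ribosomal RNA included, the shares were 0.409%, 0.0494%, 0.387% and 0.128%, and the neuron library of number 2 was then the higher one. The intervals cover counting error alone.

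**Figure D1:**
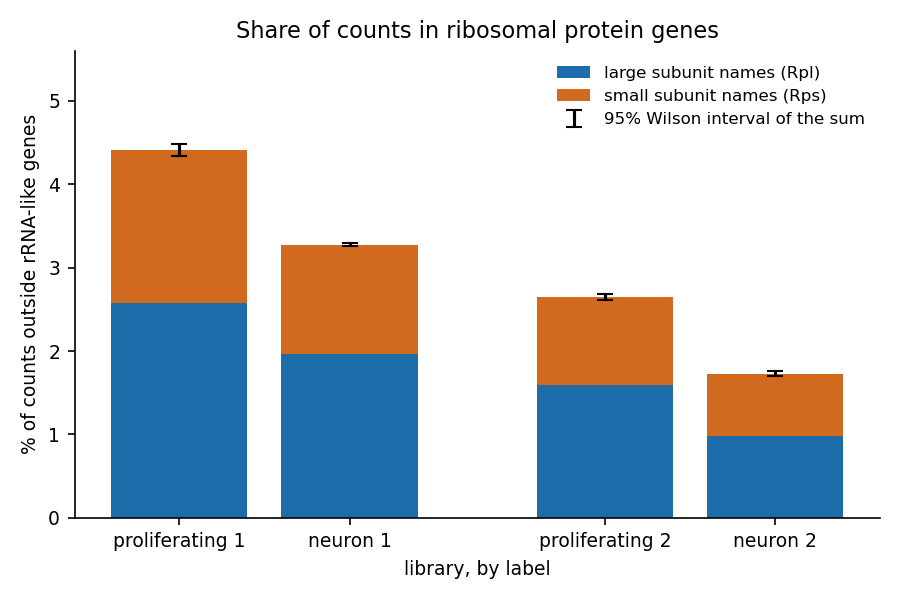
Share of the counts outside ribosomal RNA (%) taken by large (Rpl, lower segment) and small (Rps, upper segment) subunit members in each of the 4 libraries, with the 95% Wilson interval of the sum. Shares were 4.41% and 3.27% with number 1, then 2.65% and 1.73% with number 2, lower in the neuron library of each number on this denominator. Out of all counts the order in number 2 turns.

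Levels were far from even among the members. Per length, the deposited RPKM, which divides by all counts of a library, had its highest mean in Rpl41, which encodes a very short large subunit peptide, at 187 and 3.99 RPKM in the proliferating and 262 and 10.4 in the neuron libraries. Rplp0, the stalk base, had 204, 4.0, 191 and 8.52 RPKM, and Rplp1, a stalk protein, 167, 4.61, 161 and 7.15 RPKM in the same order. The small subunit genes with the highest mean were Rps26 at 164, 17.3, 153 and 32.3 RPKM, Rps29 at 93.6, 46.6, 92.4 and 51.2, and Rps15 at 131, 5.87, 122 and 12.5. All 6 were higher in both libraries numbered 1 than in both numbered 2, on a scale that counts ribosomal RNA in its total. The order of these genes also differed by number, since Rps29 was the lowest of the 6 in both libraries numbered 1 and the highest in both numbered 2.

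At the other end, some genes for core proteins had few counts. Rpl29 had 1 and 0 counts in the proliferating and 15 and 1 in the neuron libraries, Rpl21 had 2, 13, 74 and 7, and Rps2 had 5, 5, 150 and 2. These were chosen after their values were seen. The deposited rows include 5 pseudogenes named after Rpl29, 15 after Rpl21 and 12 after Rps2, and 63 of the 87 members have at least 1 such row. The 321 pseudogene rows named -ps held 0.331% and 0.299% of the remaining counts in the proliferating and 0.263% and 0.145% in the neuron libraries. The counting of reads that match several copies is not given in the sources used here. The level of a gene with near-identical copies is uncertain.

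The study compared gene expression between the groups by their labels. The sums of the division and neuron markers ran against the labels. That of the otic progenitor markers, in which Sox2 weighed most, ran with them, though Eya1 and Fgfr2 did not in each number. The groups are named here only as labelled, and exchanged labels would turn the sign of every group ratio below. Whether the labels were exchanged was not tested. The quasi-likelihood test of edgeR with group alone called 0 of the 84 members tested, and 0 of them had an unadjusted p under 0.05. Over all 11525 genes it called 0, or 0%, with 130 genes (1.13%) under that unadjusted p. DESeq2 called 0 of 23768 genes, 191 of them under an unadjusted p of 0.05. With no gene past the threshold, these calls do not show that the members were alike in the groups. Rpl29, Rps3a3 and Rps27rt did not pass the filter on low counts. The median log2 fold change, neuron over proliferating, was -0.38 over the members, -0.34 over 50 large and -0.41 over 34 small subunit members, against 0.09 over all genes tested. This sign turned with library totals as the scale (0.18, where all genes stood at 0.86), with limma on log2(RPKM + 0.1) (0.70 against 0.74) and on log2(RPKM + 1) (0.53 against 0.26), and without proliferating 1 (0.21 against 0.55). The members' median lay below that of all genes under each of these settings except log2(RPKM + 1). With group alone 70 members had a value below 0 and 14 above, and single values ran from -2.04 in Rps3a2, a pseudogene, to 1.01 in Rps2.

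Within a number there was 1 library per group and no replicate. The ratios given here are differences of log2 CPM after TMM scaling, which moves them slightly from the ratios of the printed CPM. In number 1 the median log2 ratio of the members was -0.34, against 0.19 over all genes, and 69 of 84 members were below 0, where 41.3% of all genes were. In number 2 the median was -0.47, against 0.00, and 60 of 84 were below 0, where 47.8% of all genes were. A ratio below 0 in both numbers was found for 50 members, 29 large and 21 small, a pattern that 21.4% of all genes had. A ratio above 0 in both was found for 5 members, where 31.2% of all genes had one. Across the 84 members the ratios of the numbers had a Pearson correlation of 0.07 and a Spearman correlation of 0.15, so a member's place in 1 number said little of its place in the other.

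**Figure D2:**
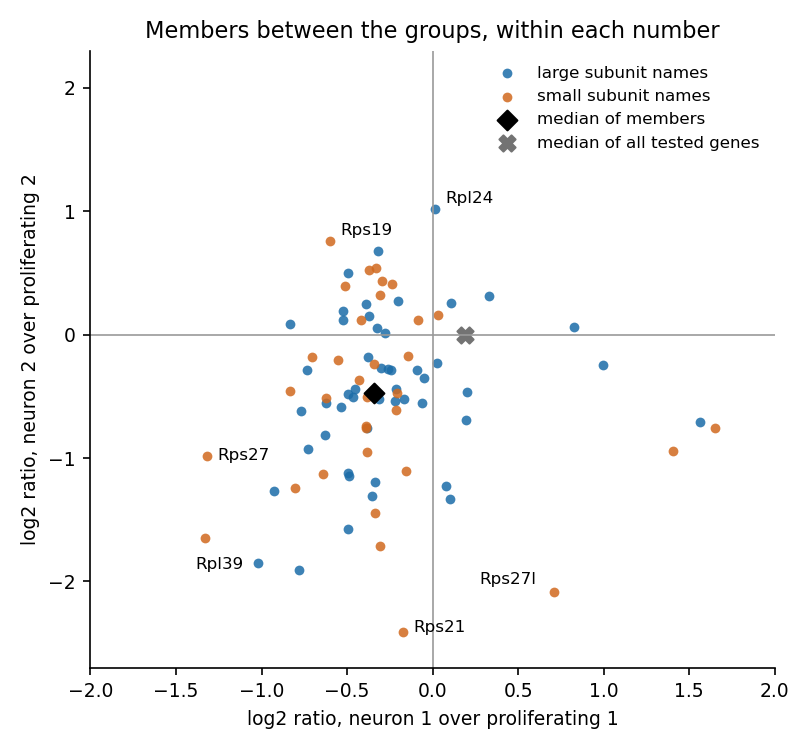
Log2 ratio of neuron over proliferating within number 1 (x axis) and number 2 (y axis) for each of 84 members after TMM scaling, coloured by subunit, with the medians of the members (diamond) and of all tested genes (cross). The members' median is at -0.34 and -0.47, that of all genes at 0.19 and 0.00, and in number 2 the lowest ratio is that of Rps21 (-2.41) and the highest that of Rpl24 (1.02). With library totals as the scale the members' median over the groups is 0.18.

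Both neuron libraries lay below both proliferating libraries, after TMM scaling, in 8 members (Rpl13a, Rpl31, Rpl37, Rpl37a, Rps6, Rps20, Rps21 and Rps29), an order that 6.58% of all genes had. Rpl37, Rpl37a and Rps20 were named after their values were seen, and Rpl37a, at 263 and 163 CPM in the proliferating and 179 and 66.4 in the neuron libraries, overlapped before TMM scaling. The reverse order was found in 1 member, Rpl35a, at 23.9 and 21.2 against 29.3 and 24.3 CPM, where 12.6% of all genes had it.

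Among large subunit genes, Rpl13a (chromosome 7, 45125563 to 45128745) encodes a protein also known for silencing messenger RNAs of inflammation outside the ribosome. It had 1252 and 771 CPM in the proliferating and 630 and 291 in the neuron libraries, so the groups did not overlap. Its log2 fold change was -1.07 (SE 1.03, 2 libraries per group, edgeR adjusted p = 1.00). The spread in this fit with group alone includes the difference between the numbers. Within each number Rpl13a was lower in the neuron library. Rpl31 lies near the exit of the peptide tunnel and had 558 and 692 against 417 and 254 CPM, with a log2 fold change of -0.86 (SE 1.00). Rpl39, another protein of the exit tunnel and the gene with the lowest coding GC printed above, had 250 and 1151 CPM in the proliferating and 117 and 291 in the neuron libraries. Here the groups overlapped, and the log2 fold change of -1.70 (SE 1.17) went with ratios of -1.02 in number 1 and -1.85 in number 2. The largest values among abundant large subunit genes were those of Rpl24 (0.37, SE 0.99), Rpl8 (0.16, SE 1.43) and Rpl41 (0.14, SE 1.28), each smaller than its SE. Rpl24, which forms a bridge between the subunits, had 304 and 89.5 against 295 and 167 CPM.

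The acidic stalk recruits the elongation factors. Rplp0 (chromosome 5, 115559467 to 115563729) had 2987 and 291 CPM in the proliferating and 2192 and 157 in the neuron libraries. Rplp1 had 842 and 116 against 637 and 45.3 CPM, and Rplp2 had 499 and 32.5 against 338 and 12.9 CPM. The ratios in number 1 were -0.38, -0.34 and -0.50 for Rplp0, Rplp1 and Rplp2, and those in number 2 were -0.76, -1.20 and -1.12. All 3 were lower in the neuron library of each number, while proliferating 2 lay far below neuron 1 in each.

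Rpl5 and Rpl11 encode the proteins that hold Mdm2, the inhibitor of p53, when ribosome assembly is disturbed. Rpl5 (chromosome 5, 107900508 to 107909005) had 739 and 713 CPM in the proliferating and 540 and 774 in the neuron libraries, and Rpl11 had 434 and 91.1 against 391 and 68.0 CPM. Rpl10, which joins the large subunit late in its assembly, had 417 and 81.4 against 407 and 63.1 CPM. The log2 fold changes were -0.01, -0.12 and -0.01 for Rpl5, Rpl11 and Rpl10, with SE of 1.02, 1.09 and 1.11. In these 3 genes the values followed the library number or no order at all, and the groups overlapped.

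The ratios of the numbers were closest to each other in Rpl12 (-0.45 and -0.44) and Rpl15 (-0.50 and -0.49) among abundant large subunit genes. Rpl12 had 691 and 295 CPM against 482 and 197, and Rpl15 had 322 and 122 against 218 and 79.3. They were farthest apart in Rpl14 (0.10 and -1.34) and Rpl27 (0.08 and -1.23). Rpl14 had 346 and 659 CPM in the proliferating and 355 and 238 in the neuron libraries, so proliferating 2 was the highest library and neuron 2 the lowest.

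Among small subunit genes, Rps21 (chromosome 2, 180257379 to 180258444) had 270 and 656 CPM in the proliferating and 229 and 112 in the neuron libraries. The groups did not overlap, but the log2 ratio was -0.17 in number 1 and -2.41 in number 2, and the log2 fold change was -1.48 (SE 1.04, edgeR adjusted p = 1.00). Rps29, a small zinc-binding protein, had 393 and 973 against 305 and 270 CPM, with ratios of -0.30 and -1.71 and a log2 fold change of -1.23 (SE 1.05). In Rps29 the gap between the groups came mostly from proliferating 2. In Rps21 proliferating 2 was the highest library and neuron 2 the lowest, and both widened the gap. Rps27, also a zinc-binding protein, had 917 and 124 against 351 and 56.6 CPM. Its ratios of -1.32 and -0.98 were lower than the members' median in both numbers.

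Rps6 (chromosome 4, 86854099 to 86857367) encodes the protein that S6 kinases phosphorylate downstream of mTOR. It had 476 and 425 CPM in the proliferating and 359 and 329 in the neuron libraries. Its ratios were -0.34 and -0.24, and its log2 fold change was -0.29 (SE 0.97), so the groups did not overlap but differed by less than the spread that edgeR estimated. Rps24, altered in some cases of Diamond-Blackfan anaemia, had 770 and 1077 against 547 and 761 CPM, with ratios of -0.43 and -0.37.

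Other small subunit genes did not share a direction. Rps19, the gene most often mutated in Diamond-Blackfan anaemia, had 387 and 27.7 CPM in the proliferating and 244 and 43.7 in the neuron libraries, with ratios of -0.60 and 0.76. Rps3, which lines the entry of the messenger RNA channel and also acts in DNA repair, had 958 and 378 against 730 and 502 CPM, with ratios of -0.33 and 0.54. Rpsa, also known as the laminin receptor, had 759 and 101 against 654 and 42.1 CPM, with ratios of -0.15 and -1.11. The largest log2 fold changes among abundant small subunit genes were those of Rps4x (0.12, SE 1.04), Rps25 (0.07, SE 1.13) and Rps3a1 (0.03, SE 1.01). Rps4x, the X-linked copy, had 1184 and 835 against 874 and 1099 CPM, and Rps25, needed by some viral entry sites, had 414 and 60.2 against 406 and 61.5.

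Paralogs of ribosomal protein genes were read beside their partners. Rpl22l1 had 17.1 and 140 CPM in the proliferating and 11.1 and 42.1 in the neuron libraries, and Rpl22 had 342 and 786 against 281 and 495. Both were higher in the libraries numbered 2 and lower in the neuron library of each number. Rps27l, a target of p53, had 41.1 and 441 against 65.4 and 93.9 CPM, so proliferating 2 stood above the other 3 libraries, and its ratios were 0.71 and -2.09. Rps27l and Rps27 thus ran opposite ways between the numbers. Rpl7l1 had 61.6 and 42.3 against 106 and 40.5 CPM beside Rpl7 at 848 and 550 against 626 and 557. Rpl36al had 34.2 and 71.6 against 67.2 and 55.0 CPM beside Rpl36a at 260 and 247 against 173 and 259. None of these 8 passed the group test, and Rpl3, Rpl10, Rpl39 and Rps4x have no partner here since their paralogs fell under the minimum.

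The libraries numbered 2 differed from those numbered 1 far more than the groups differed. A model with group and number, tested by edgeR's quasi-likelihood method at an adjusted p under 0.05, called 39 of the 84 members, 7 higher and 32 lower in the libraries numbered 2, where it called 23.3% of all genes, 7.45% higher and 15.8% lower. The 32 lower members were 18 large and 14 small subunit genes, all of them encoding ribosomal proteins. The 7 higher were Rpl22l1, Rpl23, Rpl30, Rpl37rt, Rpl39, Rps7 and Rps27l. Of the 6 paralogs or copies, 3 were among them and Rps27rt was not tested. The median log2 fold change, number 2 over 1, was -0.89 over the members, -0.66 over large and -0.99 over small subunit members, against -0.10 over all genes. Fold changes and ratios of number 2 over 1 follow TMM scaling, which raises the libraries numbered 2 against the printed CPM. The labels do not say what the numbers stand for. The small RNAs Rn7sk, Rpph1 and Rmrp moved with the number too, at 4.78% (proliferating 1) and 2.37% (neuron 1) of the remaining counts against 0.405% (proliferating 2) and 0.352% (neuron 2), and the part of this difference in RNA content was not tested.

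Rpl8 (chromosome 15, 76904071 to 76906318), which lies close to the peptidyl transferase centre, had 818 CPM in proliferating 1 and 896 in neuron 1, and 43.9 in proliferating 2 and 24.3 in neuron 2. It was 20.1-fold lower in the libraries numbered 2 (log2 fold change -4.33, SE 0.69, 2 libraries per number, edgeR adjusted p = 1.43e-07). Rplp2 was 15.2-fold lower (log2 fold change -3.92, SE 0.69), Rpl41 9.43-fold, Rplp0 9.28-fold and Rpsa 8.31-fold lower, all called. Rpl36, printed above for its high GC, had 373 and 311 CPM with number 1 but 27.7 and 30.8 with number 2, a fall of 9.01-fold (edgeR adjusted p = 8.94e-05). In each of these genes both libraries of a number lay together and apart from the other number. Rps10, at 499 and 306 CPM against 21.2 and 8.09, had the lowest fold change of all members (22.5-fold lower), and it was chosen after its values were seen.

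In the other direction, Rpl39 was 4.35-fold higher in the libraries numbered 2 (log2 fold change 2.12, SE 0.62, edgeR adjusted p = 0.00600). Rpl22l1 was 6.77-fold higher (adjusted p = 0.00334 in the same edgeR fit), and Rps27l 4.68-fold (adjusted p = 0.00868), the latter through proliferating 2 in the main. The level of Rpl22l1 in proliferating 1 lay close to the level that a count of 0 allows there, so its fold is uncertain. Rpl23 had 387 and 239 CPM with number 1 but 1572 and 816 with number 2, and Rps7, which can also bind Mdm2, had 417 and 346 against 1284 and 845. Rpl23, Rpl30, Rpl37rt and Rps7 were named after their values were seen. Rpl7, Rps3a1, Rps4x and Rps6 had log2 fold changes of -0.03, 0.21, 0.28 and 0.22 (SE 0.59 to 0.60) after TMM scaling. By the CPM printed above, Rpl7 and Rps6 were lower in the library numbered 2 of each group. The size and sign of such small values thus depend on the scale. The members did not all differ between the numbers in the same way.

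The order of the members followed the number. Across the 84 members the Spearman correlation of levels was 0.95 for the pair of libraries numbered 1 and 0.92 for the pair numbered 2. It was 0.32 between the proliferating libraries, 0.35 between the neuron libraries and 0.29 to 0.35 between libraries that differ in group and number. The log2 ratios of number 2 over number 1, taken in the proliferating and in the neuron libraries separately, had a Spearman correlation of 0.90 across the members and of 0.68 across all genes. Genes of 1 library share its depth and preparation and are not independent, so these values are descriptions.

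**Figure D3:**
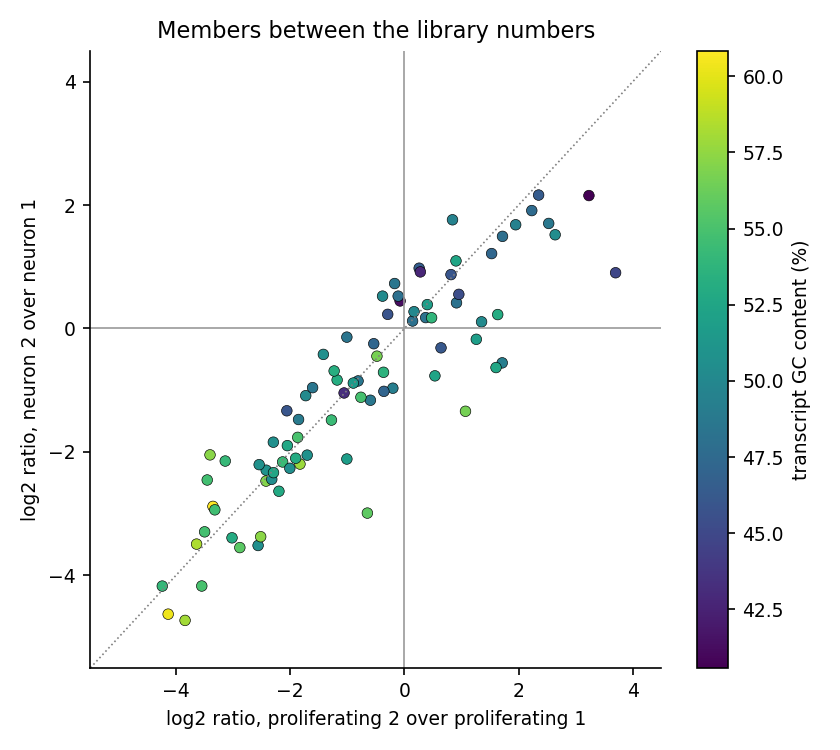
Log2 ratio of library 2 over library 1 in the proliferating (x axis) and the neuron (y axis) libraries for each of 84 members after TMM scaling, coloured by transcript GC content (%), with a dotted line of equal ratios. Members lie along the line with a Spearman correlation of 0.90, those of high GC at the lower left and those of low GC at the upper right.

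GC content of the transcript ran from 40.6 to 60.8% over the tested members, with a median of 50.7%, with 50.7% for large and 50.8% for small subunit members. The ratio of number 2 over 1 had a Spearman correlation with GC of -0.60 in the proliferating and -0.70 in the neuron libraries across the members. Across 10822 genes with a GC value it was -0.64 and -0.81, so the relation was not limited to ribosomal protein genes. With the members split by GC into groups of 28, the median log2 fold change of number 2 over 1 was 0.24 at low GC (median 47.2%), -0.90 at middle GC (50.7%) and -2.56 at high GC (54.9%). Of the members called lower, 2 were in the low, 12 in the middle and 18 in the high group, and of those called higher 5, 2 and 0. The 4 genes printed above, in order of rising coding GC, show the same run: the log2 fold change was 2.12 in Rpl39, 0.75 in Rps15a, -2.02 in Rps15 and -3.17 in Rpl36.

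Large and small subunit members differed somewhat in this relation. With coding GC, the Spearman correlation of the ratio was -0.73 in the proliferating and -0.77 in the neuron libraries over 48 large subunit members. It was -0.38 and -0.68 over 33 small subunit members. With transcript GC the gap was smaller, at -0.67 and -0.71 over large and -0.50 and -0.67 over small subunit members. The difference was not tested. The level itself, as log2 CPM, had a correlation with transcript GC of 0.21 in proliferating 1 and 0.23 in neuron 1, and of -0.45 in proliferating 2 and -0.47 in neuron 2, over all tested members.

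**Figure D4:**
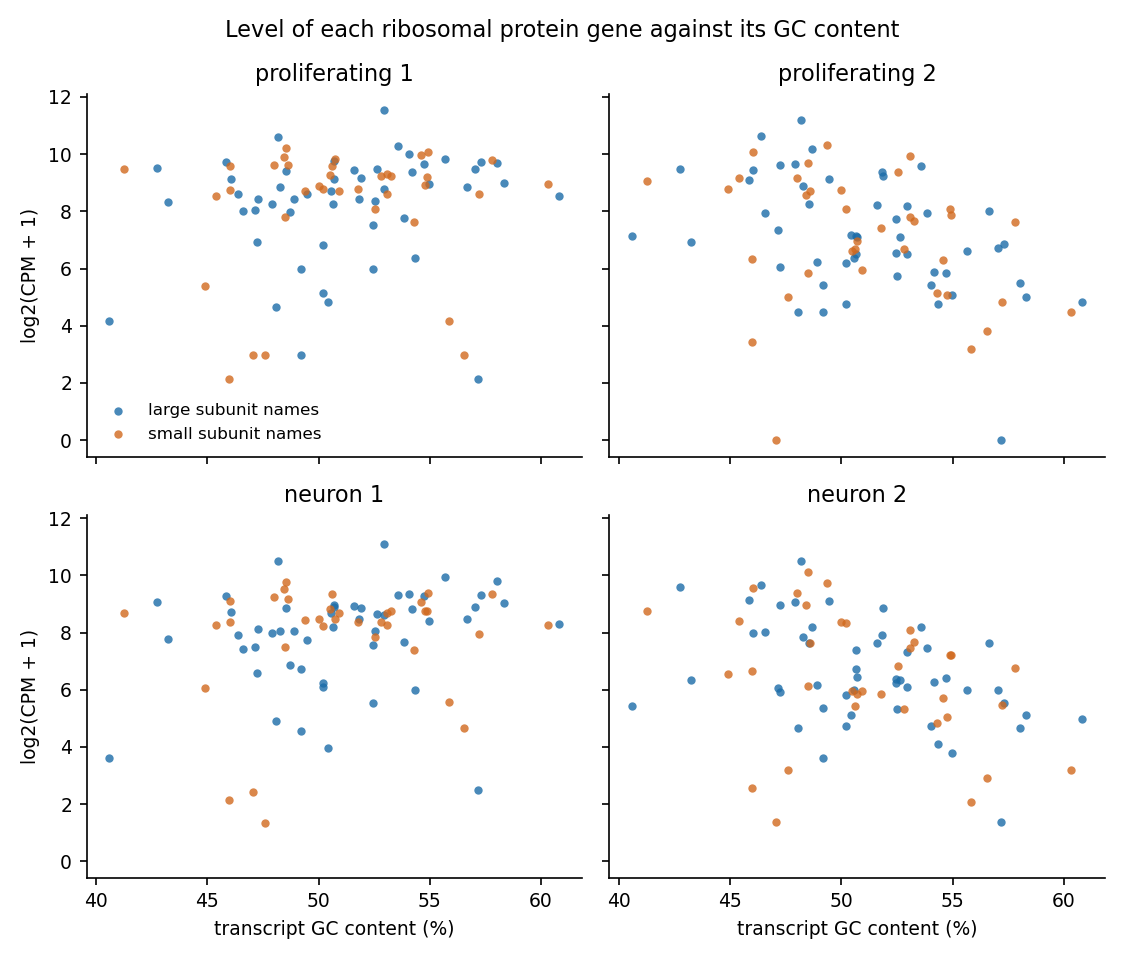
Level of each member as log2(CPM + 1) against transcript GC content (%), 1 panel per library, coloured by subunit. Spearman correlations are 0.21 and 0.23 with number 1, and -0.45 and -0.47 with number 2, where the points fall from left to right.

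A GC correction was fitted in each library over all genes with a GC value. It took out a curve against GC of each gene's deviation from its mean level over the libraries. Differences between libraries that follow GC were thus removed, but not the relation of level itself with GC. With this correction edgeR called 16 members between the numbers, 4 higher and 12 lower, where it called 4.33% of all genes. The members' median was then -0.44, against -0.04 over all genes. Between the groups, the members' ratios had a Spearman correlation with GC of 0.08 in number 1 and -0.05 in number 2, against -0.27 and -0.39 across all genes. With the GC correction the members' median group ratio was -0.54 in number 1 and -0.18 in number 2, and with a length correction added it was -0.67 and 0.29, so its sign in number 2 turned. The GC correction follows all genes and not the members. After it the members' ratios had a Spearman correlation with GC of 0.50 in number 1 and 0.30 in number 2, against 0.01 and 0.00 across all genes.

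Length set the members apart from other genes. Their median length in the deposited files was 847.5 bp (390 to 5136), against 4144 bp over all genes tested. The longest, Rps15a at 5136 bp, is counted over a gene model far longer than its coding sequence of 393 bases. Among the members, the ratio of number 2 over 1 had almost no relation with length (Spearman 0.02 in the proliferating and 0.03 in the neuron libraries). Split by length into groups of 28, its median was -0.89, -0.93 and -0.60 from short to long. The group ratio had a Spearman correlation with length of 0.16 in number 1 and 0.12 in number 2 across the members, against -0.09 and 0.30 across all genes.

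Other genes for proteins of the ribosome lie outside the naming rule. Fau, whose product is cut into a small subunit protein and a ubiquitin-like part, had 400.3 and 287 CPM with number 1, then 4.88 and 4.86, or 3 counts each, with number 2. Rack1, a scaffold on the small subunit, had 1570 and 863 against 405 and 252 CPM. Fau, with a transcript GC of 58.1%, was called lower in the libraries numbered 2, and Rack1, at 50.7%, was not (edgeR adjusted p = 0.0527).

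Lists of genes that work with the ribosome were read beside the members. Of 13 tested genes of other TOP messenger RNAs and ribosome-linked genes, 0 were called between the groups, with a median log2 fold change of -0.33. Within the numbers, however, the median ratio of these 13 was 0.14 in number 1 and 0.09 in number 2. In both numbers 2 of them were below 0 and 5 above, as were 21.4% and 31.2% of all genes. In the libraries numbered 2, 4 were called higher and 2 lower, where 7.45% of all genes were called higher and 15.8% lower. Of 47 tested translation factors, 0 were called between the groups (median 0.18), with a median ratio of 0.77 in number 1 and -0.25 in number 2. In the libraries numbered 2, 13 were called higher and 5 lower, beside the same 7.45% and 15.8% of all genes. Eef2, the elongation factor that moves the ribosome along, had 6620 and 3107 CPM in the libraries numbered 1 against 400.3 and 256 in those numbered 2. Eef1b2, an exchange factor of elongation, had 619 and 347 against 2223 and 609 CPM. The rules for naming single genes did not cover Eef2 and Eef1b2. Of 77 tested mitochondrial ribosomal protein genes, 0 were called between the groups (median -0.07), and 4 were called higher and 10 lower in the libraries numbered 2, near the shares of all genes. Their group ratio had a median of 0.68 in number 1 and -0.82 in number 2, so that median changed sign between the numbers.

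**Figure D5:**
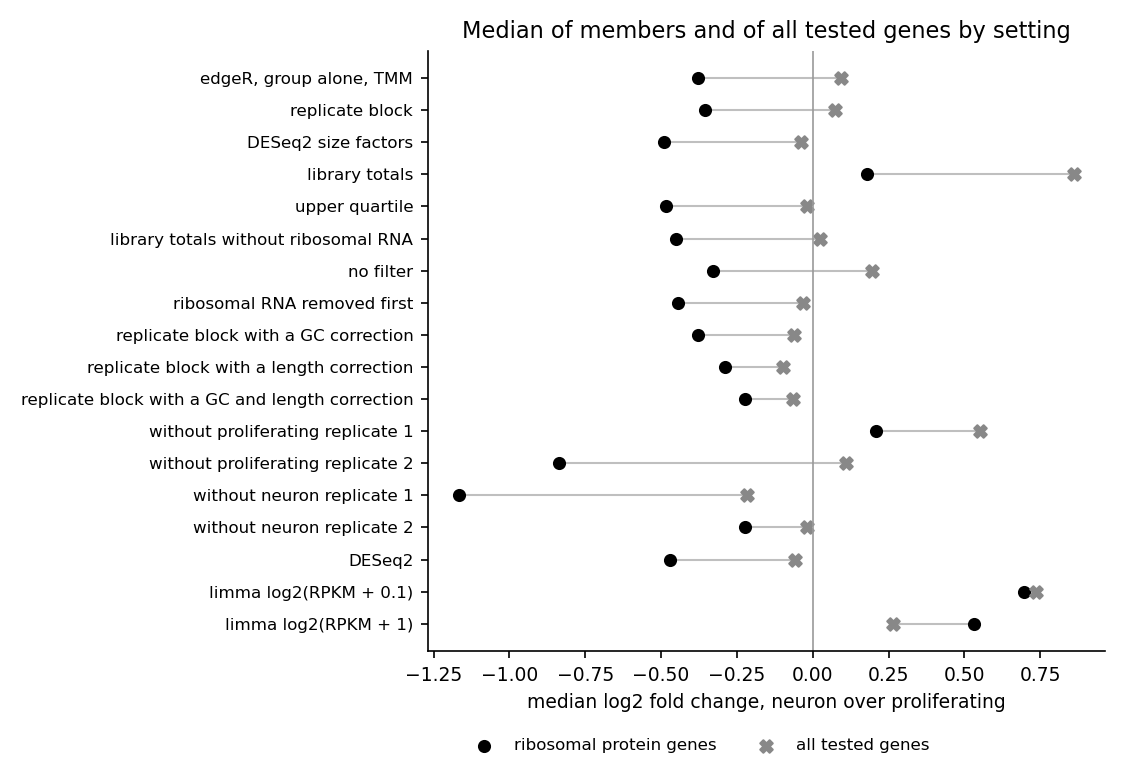
Median log2 fold change, neuron over proliferating, of the members (points) and of all tested genes (crosses) under each setting. The members' median is -0.38 with group alone and lies above 0 with library totals (0.18), without proliferating 1 (0.21) and on the limma RPKM scales (0.70 and 0.53).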

How the data were processed

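RNA was measured in 4 libraries, 2 per group, from ribosomal RNA-depleted total RNA with a stranded kit, per the labels' protocols. HISAT2, SAMtools, featureCounts, DESeq2 and the mm10 build are named in the submitters' processing notes, while versions, strand setting and the treatment of reads with several matches are not given in the sources used here. The authors deposited raw counts per gene, ribosomal RNA included, and RPKM, which divide by gene length and by the library's total count. Gene lengths were recovered from these for 6398 of 6398 genes checked, within a relative tolerance of 0.001.

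Counts were tested with edgeR 4.0.16 under R 4.3.3 (quasi-likelihood test, TMM scaling, filterByExpr, 11525 genes), with Benjamini-Hochberg adjusted p-values over all tested genes and a threshold of 0.05. Alternatives used DESeq2 1.42.0 and limma 3.58.1. Log2 CPM used a prior count of 2, and SE is the log2 fold change divided by the square root of F. On simulated counts, the fit with group alone was checked for finding set fold changes, and the fit with number for following a set GC trend. Neither simulation was set to the spread between these libraries, so they do not show how reliable the calls are. Total counts were 3150354 and 32913243 in the proliferating and 27424909 and 8368169 in the neuron libraries. GC content came from the principal GENCODE M21 transcript and was available for 93.9% of tested genes. Positions came from RefSeq (GRCm38.p6, the mm10 build).

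The members and lists were chosen with earlier results of these data known. Named were, per subunit, the 3 highest and lowest log2 fold changes and the 3 highest mean RPKM, and the 2 members with the most and the 2 with the least different ratios between the numbers. The fold change and ratio rules asked for a mean log2 CPM of at least 7, taken on counts outside ribosomal RNA, since ribosomal RNA dominates the totals. The stalk genes, Rpl5, Rpl10, Rpl11, Rps3, Rps6, Rps19, Rpsa and paralogs with their partners were always named. The result of 1 gene outside the naming rule is not reported here.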

Additional observations from a re-analysis of the deposited data

How the results depend on the processing

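The median log2 fold change of the members, neuron over proliferating, was -0.38 and ran from -1.17 to 0.21 when single libraries were left out. That of large subunit members ran from -1.10 to 0.14 and that of small subunit members from -1.29 to 0.39, where the highest values were those without proliferating 1 and the lowest those without neuron 1. With library totals the medians were 0.18 for all members, 0.24 for large and 0.15 for small. On log2(RPKM + 0.1) they were 0.70, 0.74 and 0.65, and on log2(RPKM + 1) they were 0.53, 0.55 and 0.50. The within-number median of number 2 was 0.29 with a GC and length correction. The cause of these changes was not tested. The calls between the numbers went from 39 to 16 members with a GC correction and to 23 with a GC and length correction, alternatives chosen after seeing the data. As a share of all counts the members took 0.409, 0.0494, 0.387 and 0.128% in proliferating 1, proliferating 2, neuron 1 and neuron 2, and of nuclear protein-coding counts 5.07, 3.20, 3.61 and 2.18%.

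The labels do not say that numbers pair the libraries, and there are only 2 pairs. Deviations from the group means correlated by number at 0.69 over all genes and 0.90 over the members. With the replicate block, edgeR called 57 genes, and 46 with a GC, 145 with a length and 91 with both corrections, with 0 members called in each. In all alternatives run, 0 members were called between the groups, with at most 6 under an unadjusted p of 0.05. Of 612 values of the 36 named members, 540 stayed within 1 SE of the main value, and the sign differed in 145. The SE was often larger than the main value itself, so the count of 540 does not show that values were stable. Depth limits the members near the floor, and 1 pair of libraries per group limits all comparisons of groups.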
